A study of Mus musculus with 12 samples.

Results

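The Sox genes encode transcription factors that bind DNA through an HMG box related to that of SRY. A list of 10 members with roles in the nervous system (Sox1, Sox2, Sox3, Sox4, Sox5, Sox6, Sox8, Sox9, Sox10 and Sox11) was read on 12 Illumina MouseWG-6 bead arrays, and every probe whose platform gene symbol was a listed name was taken. Of the 10 genes, 8 had such a probe, out of 17711 genes named on the array, and they had 22 probes in all. No probe carried the symbols Sox3 or Sox4, and these genes were not analysed here. Detection meant a detection p-value under 0.01, and a probe was kept for testing when it was detected on at least 3 of the 12 arrays. Of the 22 probes, 17 were kept, 4 were detected on 0 arrays and 1 on 2 arrays, which left 7 testable genes. Sox1, with 1 probe, was the gene that could not be tested.

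The arrays formed 4 groups of 3 independent biological replicates, all from C57Bl/6 mice. Ependymal cells, the ciliated cells that line the fluid-filled spaces of the central nervous system, had been sorted from adult animals as CD133+/CD24+/CD45-/CD34- cells of the lateral ventricular wall (LVW) or of the spinal cord (SC). Radial glia (RG), the progenitors of the embryonic forebrain, had been sorted at embryonic day 14.5 as CD133+/CD24-/CD45-/CD34- cells. Neurospheres (NSP) were floating cultures grown from spinal cord ependymal cells of adult mice and were not sorted. RNA of every sample had been amplified in 2 rounds before biotin labelling. Between the radial glia and the ependymal groups, age and the sign of CD24 changed together with cell type. Against spinal cord the region changed too, so these cannot be told apart. Between the neurospheres and SC, culture and the lack of a sort changed together. Region changed as well between the neurospheres and LVW, and both region and age between the neurospheres and RG. These cannot be told apart either.

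Members of the family are grouped by sequence. SoxB1 proteins (Sox1, Sox2, Sox3) maintain neural progenitors, and SoxC proteins (Sox4, Sox11, Sox12) act in embryonic progenitors and young neurons. SoxD proteins (Sox5, Sox6, Sox13) lack a transactivation domain and modulate other factors, while SoxE proteins (Sox8, Sox9, Sox10) act in glia, with Sox9 linked to glial specification and astrocytes, and Sox8 and Sox10 to the oligodendrocyte lineage.

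Windows at the start of Sox2, Sox8 and Sox11 are printed because these 3 genes differed between the groups and had an entry in the RefSeq promoter table (build GRCm38.p6), which covers 250 bases before to 50 bases after a start site. Sox3, Sox9 and Sox10 had no entry. The windows lie at chr3:34649745-34650044 on the plus strand for Sox2, at chr17:25570637-25570936 on the minus strand for Sox8 and at chr12:27342669-27342968 on the minus strand for Sox11. Capitals mark each match of GGGCGG, a GC box, on either strand, so that CCGCCC is the same motif on the opposite strand. AACAAT, a Sox consensus core, was also searched on both strands and had 0 matches in each of the 3 windows.
Sox2: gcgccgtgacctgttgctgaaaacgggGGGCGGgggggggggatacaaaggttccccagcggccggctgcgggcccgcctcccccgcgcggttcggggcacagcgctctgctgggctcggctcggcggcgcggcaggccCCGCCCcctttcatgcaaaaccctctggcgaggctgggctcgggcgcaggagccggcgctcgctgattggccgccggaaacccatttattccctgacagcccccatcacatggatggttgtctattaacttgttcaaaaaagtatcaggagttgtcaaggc
Sox8: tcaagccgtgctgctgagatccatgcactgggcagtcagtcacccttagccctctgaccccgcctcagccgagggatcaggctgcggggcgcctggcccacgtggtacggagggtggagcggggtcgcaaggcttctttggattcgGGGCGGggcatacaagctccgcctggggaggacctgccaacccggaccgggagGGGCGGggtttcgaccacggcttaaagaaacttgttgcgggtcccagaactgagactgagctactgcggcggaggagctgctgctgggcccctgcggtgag
Sox11: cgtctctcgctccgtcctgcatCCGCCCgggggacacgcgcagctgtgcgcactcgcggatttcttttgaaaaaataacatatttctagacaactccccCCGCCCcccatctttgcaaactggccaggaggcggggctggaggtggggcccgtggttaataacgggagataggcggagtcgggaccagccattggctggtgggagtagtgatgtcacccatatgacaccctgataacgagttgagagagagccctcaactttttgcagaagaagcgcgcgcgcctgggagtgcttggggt
Each of these windows held 2 GC boxes, and their GC content was 66.3% for Sox2, 66.3% for Sox8 and 58.7% for Sox11, against a median of 52.7% over 32851 windows. GGGCGG occurred in 35.7% of all windows and AACAAT in 10.7%. Among the member windows, AACAAT was found in 1 of the 6 start windows of Sox6, where it occurred 2 times. A match of these letters is a description of the window, not evidence of binding.

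The labels were compared with marker transcripts on the same arrays. Foxj1, the master regulator of motile cilia, read 7.87 to 9.32 on the log2 signal scale in LVW and 9.02 to 9.45 in SC, and 13 of 14 tested cilia genes were called higher in LVW than in RG, as were 13 of 14 in SC. Prom1, which encodes CD133, was detected on all 12 arrays. Cd24a was detected on 3 LVW arrays, 1 SC array, 0 RG arrays and 0 NSP arrays, so the CD24 transcript was seen on 1 of 3 arrays of a group gated as CD24+. Of 18 tested stem and progenitor genes, 17 were detected on each RG array, against 14 to 15 in LVW, 12 to 13 in SC and 14 to 16 in NSP. In LVW 2 of them were called higher and 9 lower than in RG, in SC 1 higher and 8 lower, and in NSP 2 higher and 6 lower. Among them, Pax6, Nes and Slc1a3 were detected on all 3 RG arrays. Fabp7, a radial glia marker, was detected on 0 RG arrays and on 3 NSP arrays. Neurosphere replicate 3 stood apart in its raw data, with a mean intensity of 654 against 199 and 248 in the other 2 neurosphere arrays and 16175 detected probes against 10742 to 13487 on the other 11 arrays. Correlations between arrays of a group were 0.836 to 0.876 in LVW, 0.920 to 0.946 in SC, 0.950 to 0.968 in RG and 0.869 to 0.973 in NSP.

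Of the 7 tested members, none was called between the adult ependymal groups. Sox11 was lower and Sox9 higher in both ependymal groups than in the embryonic radial glia, and Sox8 was higher in the neurospheres than in each other group. Differences were tested with limma over all 9526 testable genes, for each of which the brightest kept probe was used, and a gene was called at a Benjamini-Hochberg adjusted p under 0.05. Between SC and LVW, 0 of 7 members were called, where 8.04% of all tested genes were, and the members' median log2 difference was -0.62 against 0.05 over all genes. At an unadjusted p under 0.05, 1 member (Sox10) passed in that comparison. Between LVW and RG, 3 of 7 were called (Sox2 and Sox9 higher and Sox11 lower in LVW) against 36.5% of all genes, with medians of 0.21 and -0.19. Between SC and RG, 3 of 7 were called (Sox9 and Sox10 higher and Sox11 lower in SC) against 31.8%, with medians of -0.06 and -0.14. The shares of members called in the comparisons with RG were thus near those of all genes.

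Neurospheres had 2 of 7 members called higher in each of their comparisons and 0 called lower. Against SC, their tissue of origin, these were Sox8 and Sox11, where 30.2% of all genes were called, and the members' median was 0.20 against 0.08. Against RG they were Sox8 and Sox9, where 20.3% of all genes were called, with medians of 1.35 and -0.05. Against LVW they were Sox8 and Sox11, where 33.7% of all genes were called, with medians of 0.17 and 0.12. These shares were again near the background. The 6 comparisons reuse the same 4 groups of arrays, so their results are not independent of each other. In each of them, fewer cells of an expressing type and less RNA per cell cannot be told apart.

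**Figure D1:**
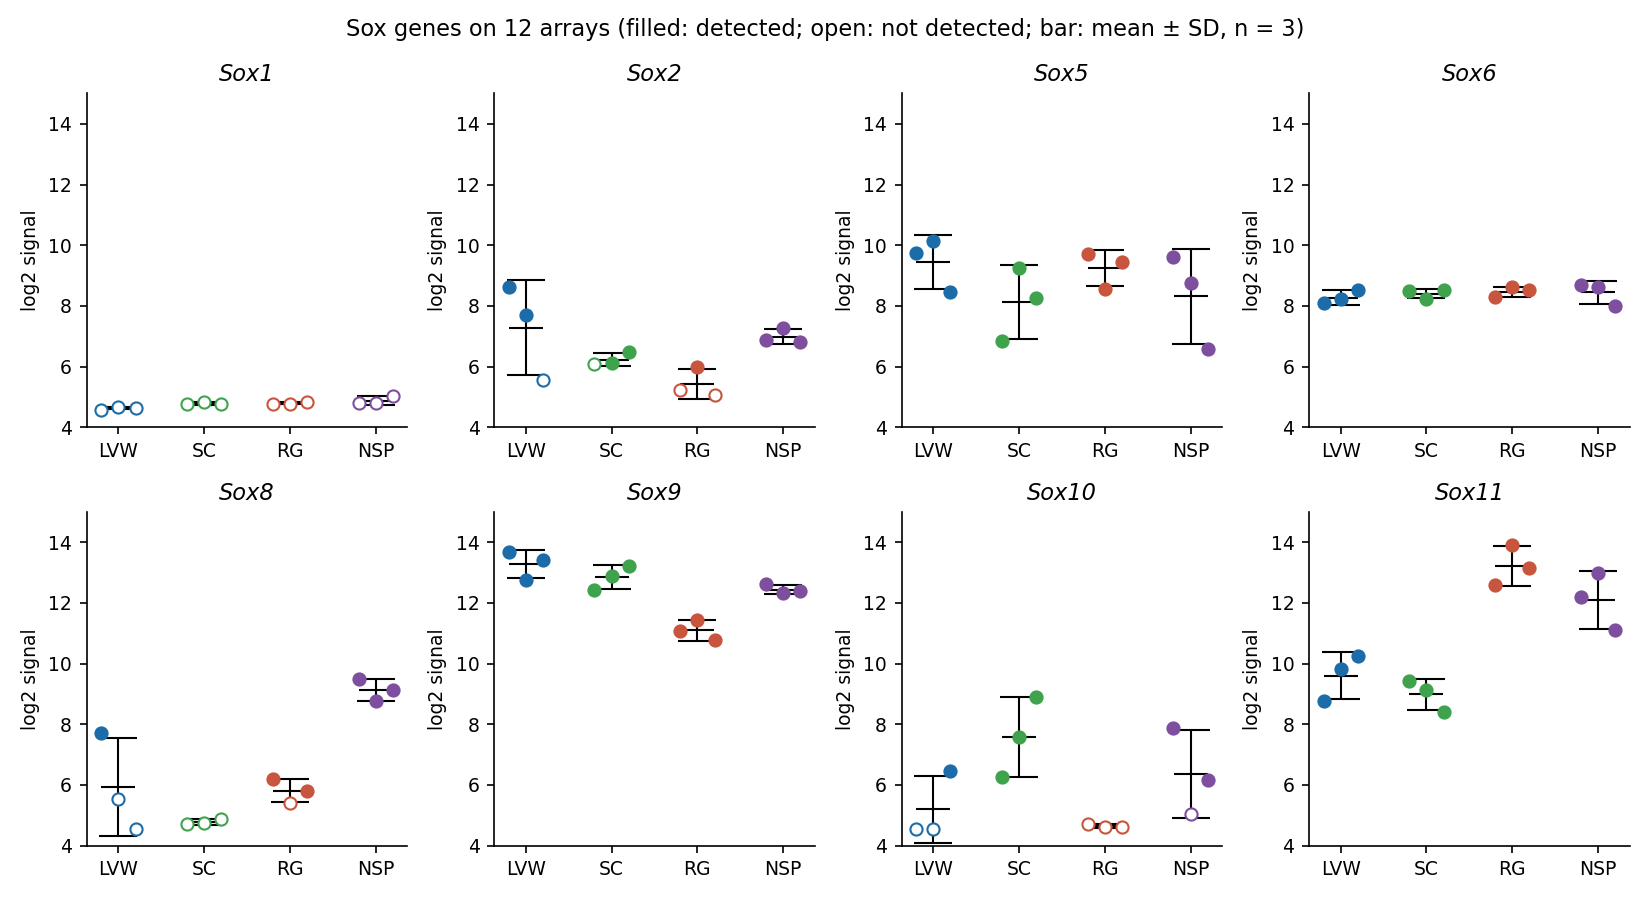
Log2 signal (vertical axis, background corrected and quantile normalised) of the 8 Sox genes with a probe on 3 arrays each of LVW, SC, RG and NSP. Filled points were detected and open points were not, and bars give the mean and SD of 3 arrays. Sox1 is open throughout, Sox6 is level, Sox8 is high in NSP and Sox11 is high in RG and NSP.

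**Figure D2:**
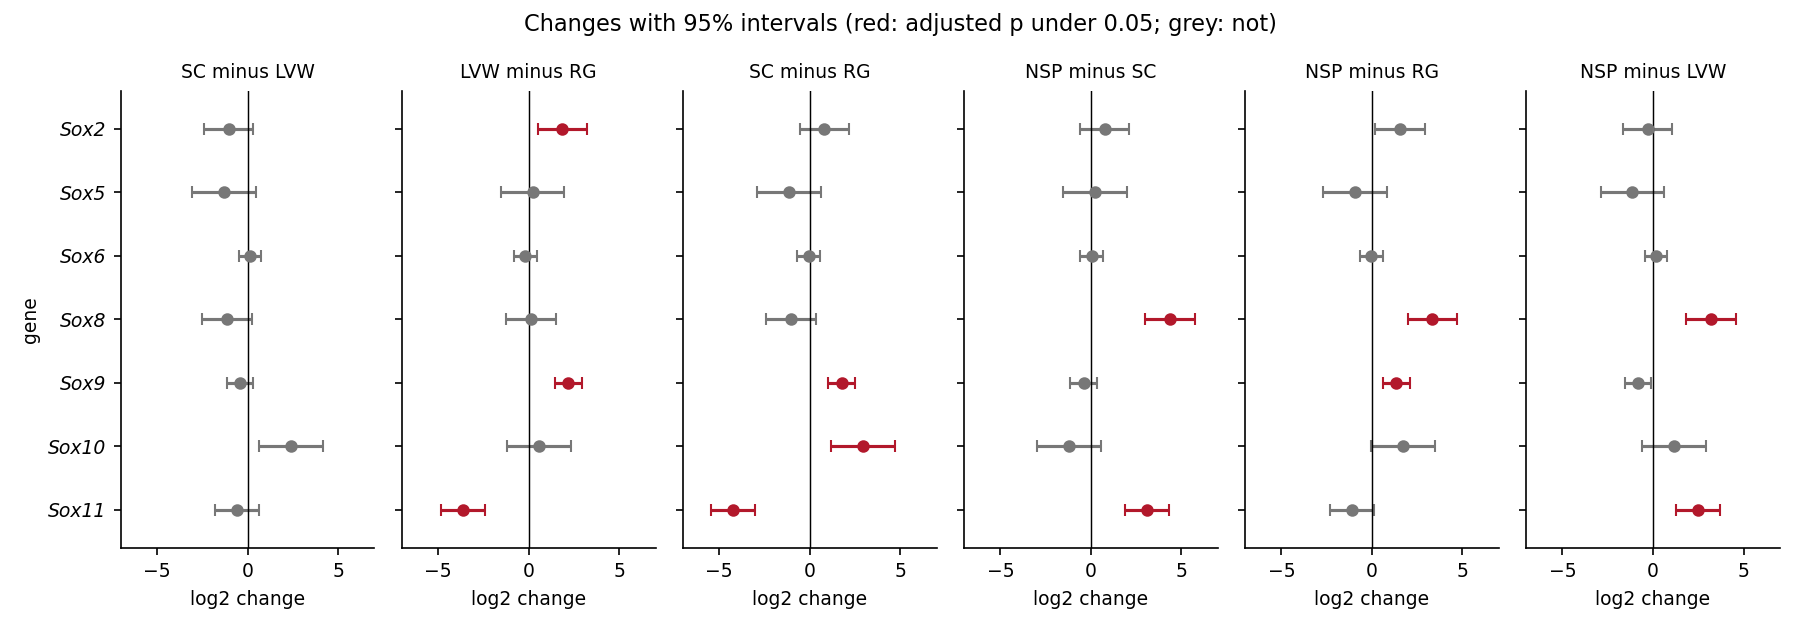
Log2 differences between groups (horizontal axis) with 95% intervals for the 7 tested Sox genes (rows) in the 6 comparisons (panels). Red marks an adjusted p under 0.05. No gene is red in SC minus LVW, and Sox11 is red in 4 of the 6 panels.

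Among the SoxB1 genes, Sox1, an early neuroepithelial factor (ILMN_2739470, chromosome 8), was not detected on any of the 12 arrays. Its log2 signal ran from 4.58 to 5.03, which is the range of undetected probes, and no fold was computed.

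Sox2, the factor that maintains neural stem cells (gene at chr3:34649995-34652461, GRCm38.p6), was weakly measured. Its brighter probe (ILMN_1248711) read 8.61, 7.69 and 5.55 in LVW and 6.10, 6.11 and 6.48 in SC. It read 5.24, 6.00 and 5.07 in RG and 6.88, 7.27 and 6.80 in NSP. LVW spread over 3.07 log2 units, and the lowest LVW array lay inside the range of RG, so those groups overlapped, while all 3 NSP arrays lay above all SC and RG arrays. It was detected on 2 LVW, 2 SC, 1 RG and 3 NSP arrays. Sox2 was called higher in LVW than in RG, with a difference of 1.85 ± 0.62 (model SE, n = 3 per group, limma adjusted p 0.0361). That call was lost without LVW replicate 1 (adjusted p 0.128) or replicate 2 (0.0988), without RG replicate 1 (0.101) or replicate 3 (0.113), and in 4 of 13 alternatives, namely the 6 arrays compared (0.120), no detection filter (0.0853), median scaling over all probes (0.0807) and the mean of both probes (0.0708). The difference of NSP from RG was 1.55 (95% interval 0.19 to 2.91, limma adjusted p 0.104) and was not called.

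The other Sox2 probe (ILMN_2656103) was detected on 1 LVW, 2 SC, 0 RG and 1 NSP arrays. It gave 6.72, 5.34 and 4.99 in LVW and 6.01, 6.01 and 6.70 in SC. In RG it gave 5.33, 4.97 and 5.02, and in NSP 5.42, 5.37 and 6.11. The 3 SC arrays lay above all RG arrays on this probe, and LVW overlapped both. It was called in 0 of the 6 comparisons, and for LVW against RG its difference was 0.57 ± 0.44 (limma adjusted p over all kept probes 0.351). The Sox2 call between LVW and RG was thus made on 1 of its 2 probes, on which LVW replicates 1 and 2 read highest.

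Among the SoxC genes, Sox11, which is active in embryonic neural progenitors and newborn neurons (gene at chr12:27334268-27342718, with the GC boxes of its window shown above), was the member that set the embryonic and cultured cells apart from the adult ependymal cells. Its brightest probe (ILMN_1235647) read 8.76, 9.82 and 10.25 in LVW and 9.43, 9.13 and 8.42 in SC. It read 12.60, 13.90 and 13.15 in RG and 12.19, 12.99 and 11.11 in NSP. It was detected on every array, and each RG and NSP array lay above each ependymal array, with RG and NSP overlapping. Group means were 9.61 ± 0.77 in LVW, 8.99 ± 0.52 in SC, 13.22 ± 0.65 in RG and 12.10 ± 0.94 in NSP (SD, n = 3). Neurosphere replicate 3 was the lowest of its group.

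Sox11 was 12.2-fold higher in RG than in LVW (log2 difference, LVW minus RG, -3.61 ± 0.55, limma adjusted p 0.000362) and 18.7-fold higher in RG than in SC (SC minus RG -4.23 ± 0.55, adjusted p 0.000126). In neurospheres it was 8.62-fold higher than in their tissue of origin, SC (log2 difference 3.11 ± 0.55, limma adjusted p 0.00138), and 5.62-fold higher than in LVW (2.49 ± 0.55, adjusted p 0.00488). These 4 calls held under all 13 alternatives to the processing and in all 6 fits that left out 1 array of the groups compared. Without neurosphere replicate 3, the differences were 3.60 from SC (limma adjusted p 0.000655), 2.98 from LVW (0.00180) and -0.61 from RG (0.431). The difference between NSP and RG was -1.12 (95% interval -2.33 to 0.10, adjusted p 0.186), and that between SC and LVW was -0.62 (-1.83 to 0.60, adjusted p 0.568).

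The remaining Sox11 probes gave the same order of groups. ILMN_2616196 read 9.10 to 10.23 in RG and 6.92 to 9.32 in NSP, was detected on 0 SC arrays and on 1 LVW array (7.44 on LVW replicate 3), and was at least 11.6-fold higher in RG than in SC (limma adjusted p over all kept probes 0.00102). ILMN_2740231 read 7.35 to 8.10 in RG and 5.96 to 7.71 in NSP, was detected on 0 LVW and 0 SC arrays, and was at least 3.55-fold higher in RG than in LVW (adjusted p 0.000241). "At least" sets the higher group's mean against the weakest signal detected on each array of the other group, because that group gives only a bound. Both probes were called in the same 4 comparisons as the brightest one and in the same direction. The fourth Sox11 probe was detected on 0 arrays.

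Sox11 differences between the ependymal groups and RG ran beside differences in neuronal and cell cycle transcripts, whose part in the result was not tested. Of 19 tested neuronal genes, 10 were lower and 1 was higher in LVW than in RG, and 0 were higher and 11 lower in SC than in RG. Dcx, a microtubule protein of migrating neurons, read 8.74 to 9.91 on the RG arrays and was detected on 0 LVW and 0 SC arrays. Neurod2, a neuronal differentiation factor, read 10.20 to 10.67 in RG and was detected on 0 arrays of the other groups. In neurospheres, where Sox11 was also high, Dcx was detected on 1 array (7.33 on replicate 3), and of the 19 neuronal genes 2 were higher and 1 was lower than in SC. Against RG, 1 neuronal gene was higher and 10 were lower in NSP, a comparison in which Sox11 was not called. The number of neuronal genes detected was 15 to 18 per RG array, 3 to 8 per SC array, 5 to 10 per LVW array and 8 to 13 per NSP array. Of 15 tested cell cycle genes, 15 were lower in LVW and 13 lower in SC than in RG, while 11 were higher in NSP than in SC.

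Endothelial and mural transcripts also differed between RG and both ependymal groups, and choroid plexus transcripts mainly between RG and SC. The RG gate had removed CD34+ and CD45+ cells. The part of these transcripts in the Sox differences from RG was not tested. Of 15 tested endothelial and mural genes, 13 to 14 were detected per RG array, against 5 to 9 in LVW, 4 to 5 in SC and 4 to 6 in NSP. The summed log2 signal of that list was 127 to 136 in RG, 92.5 to 103 in LVW, 85.5 to 88.6 in SC and 85.9 to 87.9 in NSP. In LVW 3 of these genes were higher and 8 lower than in RG, in SC 1 was higher and 10 lower, and in NSP 0 were higher and 8 lower. Cldn5, a defining endothelial tight junction gene, was detected on 1 LVW, 0 SC, 1 RG and 1 NSP arrays. Of 7 tested choroid plexus genes, 5 to 7 were detected per RG array, 4 to 5 in LVW, 3 to 4 in SC and 0 to 2 in NSP. The summed log2 signal of that list was 61.1 to 69.3 in RG, 51.9 to 56.5 in LVW, 44.2 to 45.2 in SC and 33.6 to 35.9 in NSP. In LVW 1 was higher and 1 lower than in RG, in SC 1 was higher and 4 lower, and in NSP 0 were higher and 5 lower. Over all tested genes, 36.5% were called in LVW against RG, 31.8% in SC against RG and 20.3% in NSP against RG. The choroid plexus calls in LVW, 1 in each direction, did not exceed that share. Ttr, the defining choroid plexus gene, was detected on 3 RG arrays and on 0 of the other 9. Cldn5 and Ttr were named after their values had been seen. Microglia transcripts went the other way, although the ependymal gate also removed CD45+ cells. Of 2 tested microglia genes, 1 was called higher in LVW and 2 in SC than in RG, and 0 were lower. Their part in the Sox differences was not tested.

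The SoxD genes gave readings that differed from probe to probe. Sox6, a factor of oligodendrocyte precursors and cartilage (gene at chr7:115470872-116040776), was level on its brightest probe (ILMN_2702323), which read 8.08, 8.21 and 8.53 in LVW and 8.49, 8.22 and 8.51 in SC. It read 8.29, 8.62 and 8.51 in RG and 8.69, 8.63 and 8.001 in NSP. All 4 groups overlapped, and the probe was detected on every array. Its 6 log2 differences lay between -0.20 and 0.17 with an SE of 0.29, and the interval that reached farthest from 0, for LVW minus RG, was -0.82 to 0.43 (limma adjusted p 0.622). Smaller differences than these bounds cannot be seen with 3 arrays a group.

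Other Sox6 probes were dimmer and less even. ILMN_1252898 was detected on 3 SC arrays at 8.49, 6.98 and 6.35 and on 0 LVW arrays, with 1 RG array and 2 NSP arrays detected. The SC arrays lay above all LVW arrays, by at least 2.65-fold on average, but the difference was not called (limma adjusted p over all kept probes 0.0845). ILMN_1224198 was detected on all arrays of SC, RG and NSP and on 1 LVW array (7.60 on replicate 3). ILMN_2694009 was detected on 1 LVW, 2 SC, 2 RG and 1 NSP arrays. None of the 4 kept Sox6 probes was called in any of the 6 comparisons, and the fifth was detected on 0 arrays.

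Sox5, which also acts in cortical neurons (gene at chr6:143828425-144782287), was not called on its brightest probe (ILMN_2631143). That probe read 9.75, 10.14 and 8.46 in LVW and 6.83, 9.25 and 8.25 in SC. It read 9.72, 8.56 and 9.44 in RG and 9.62, 8.75 and 6.57 in NSP. The probe was detected on every array, but SC spread over 2.42 and NSP over 3.05 log2 units, so all groups overlapped. Its largest difference, SC minus LVW, was -1.34 ± 0.81 (95% interval -3.10 to 0.43, limma adjusted p 0.374). Within NSP, 96.7% of all tested genes had a smaller SD than this probe.

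A Sox5 probe designed on a cDNA clone record (ILMN_2580904) gave another picture. It read 8.38, 7.56 and 8.78 in RG and 9.59, 8.89 and 7.60 in NSP, and was detected on 0 LVW and 0 SC arrays. The RG and NSP arrays all lay above the ependymal arrays, which read 4.94 to 5.45. It was at least 5.18-fold higher in RG than in LVW (limma adjusted p over all kept probes 0.000713), and at least 4.88-fold higher in RG than in SC (0.000345). It was at least 6.68-fold higher in NSP than in SC (limma adjusted p 0.000152), and at least 7.10-fold higher in NSP than in LVW (0.000294). On this probe, as for Sox11, RG and NSP both lay above the ependymal groups, but the NSP mean was above the RG mean here (8.69 and 8.24), and below it for Sox11. No probe sequence was used here, so which Sox5 transcripts each probe reads was not tested.

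The remaining Sox5 probes were dimmer on most arrays. Over the 12 arrays, ILMN_1244213 correlated with the brightest probe at 0.788 and ILMN_1213910 at 0.666, and with the cDNA clone probe at 0.350 and -0.226, as a description. ILMN_1213910 read 8.13 and 8.53 on LVW replicates 1 and 2 and 5.23 on replicate 3, where it was not detected, and it was detected on 1 of the other 9 arrays, RG replicate 1. It was called lower in NSP than in LVW (limma adjusted p over all kept probes 0.0289, at least 3.11-fold), although the NSP range of 4.69 to 5.53 reached above LVW replicate 3. Its difference between SC and LVW had an adjusted p of 0.0510. ILMN_2521560, also designed on a cDNA clone, was detected on 2 arrays, SC replicates 2 and 3, at 6.36 and 7.71, and was not tested. ILMN_1244213 was detected on 4 arrays and called in 0 comparisons, and the sixth Sox5 probe was detected on 0 arrays.

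**Figure D3:**
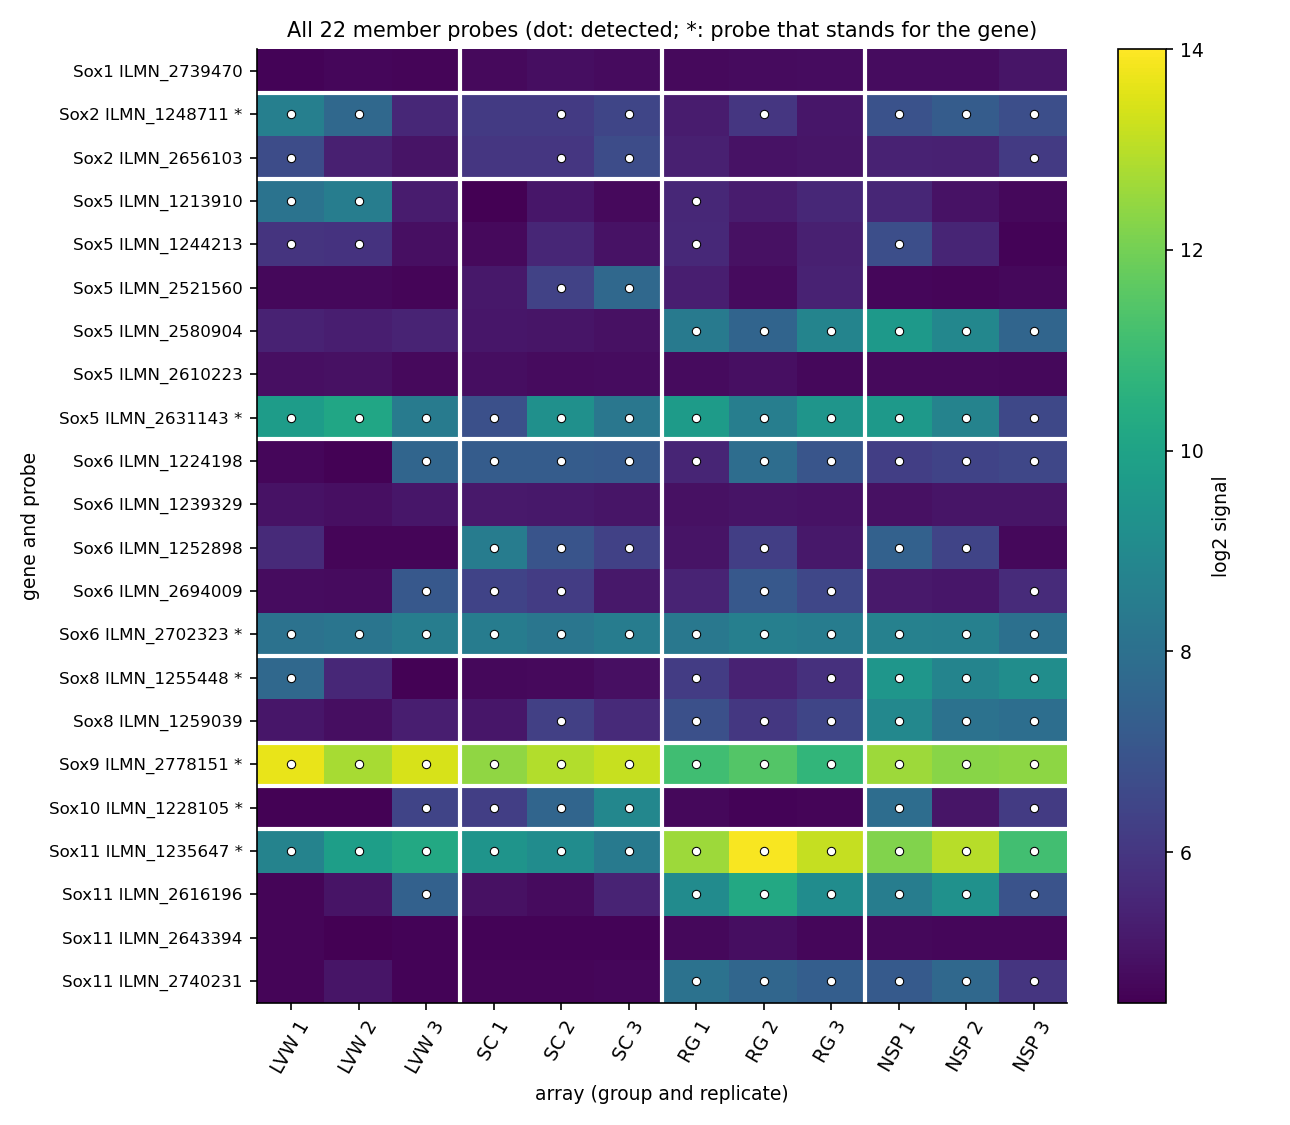
Log2 signal (colour) of all 22 probes (rows, grouped by gene) on the 12 arrays (columns, by group and replicate). A dot marks detection and an asterisk the probe used for the gene. The 3 kept Sox11 probes and Sox5 probe ILMN_2580904 are brighter on every RG and NSP array than in SC, while Sox5 probe ILMN_2631143 is detected in all 4 groups.

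Among the SoxE genes, Sox9, a factor of glial specification that astrocytes and ependymal cells keep (gene at chr11:112782210-112787757), was detected on every array. Its probe (ILMN_2778151) read 13.67, 12.76 and 13.41 in LVW and 12.43, 12.90 and 13.22 in SC. It read 11.07, 11.45 and 10.76 in RG and 12.62, 12.33 and 12.39 in NSP. Every array of the other 3 groups lay above every RG array, NSP lay below LVW without overlap, and SC overlapped both LVW and NSP. Group means were 13.28 ± 0.47 in LVW, 12.85 ± 0.40 in SC, 11.10 ± 0.34 in RG and 12.44 ± 0.15 in NSP (SD, n = 3).

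Sox9 was 4.54-fold higher in LVW than in RG (log2 difference 2.18 ± 0.34, limma adjusted p 0.000363) and 3.36-fold higher in SC than in RG (1.75 ± 0.34, adjusted p 0.00188). It was 2.54-fold higher in NSP than in RG (1.35 ± 0.34, limma adjusted p 0.0146). Without neurosphere replicate 3 it was 1.37 (limma adjusted p 0.0177). The call was lost without RG replicate 1 (adjusted p 0.0540), RG replicate 3 (0.0742) or NSP replicate 1 (0.0666), and with median scaling over all probes (0.0802), 1 of 13 alternatives. That scaling moved the median gene in SC minus RG to -0.80, and gave Sox9 a difference of 1.01 there (adjusted p 0.0988). The difference of NSP from LVW was -0.84 (95% interval -1.57 to -0.10, adjusted p 0.0750), and that of SC from LVW was -0.43 (-1.17 to 0.30, adjusted p 0.501).

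Astrocyte transcripts ran beside Sox9, and their part in its differences was not tested. Of 14 tested astrocyte genes, 8 were higher in LVW, 5 in SC and 7 in NSP than in RG, and 0 were lower in any of these comparisons. Gja1, which encodes a gap junction protein of astrocytes, was among the 3 genes with the highest correlation with Sox9 over the 12 arrays (Pearson r 0.943), and it read 12.54 to 13.77 in LVW, SC and NSP and 9.62 to 10.07 in RG. The astrocyte list had 11 to 14 genes detected per LVW array, 9 to 14 per SC array, 6 to 8 per RG array and 10 to 13 per NSP array.

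Sox8, which acts with Sox10 in oligodendrocyte development (gene at chr17:25565893-25570686, GC boxes of its window shown above), was high in neurospheres. Its brighter probe (ILMN_1255448) read 7.73, 5.55 and 4.56 in LVW and 4.72, 4.75 and 4.89 in SC. It read 6.18, 5.42 and 5.82 in RG and 9.50, 8.78 and 9.15 in NSP. All 3 NSP arrays lay above all 9 other arrays, and 1 LVW array stood above the rest of its group. It was detected on 1 LVW, 0 SC, 2 RG and 3 NSP arrays.

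Sox8 was at least 9.13-fold higher in NSP than in SC, the tissue of origin of the cultures (log2 difference 4.36 ± 0.63, limma adjusted p 0.000303). It was higher in NSP than in RG by 3.34 ± 0.63 (adjusted p 0.00284) and than in LVW by 3.20 ± 0.63 (adjusted p 0.00216), with arrays below detection in both of those groups. The other probe (ILMN_1259039) read 8.92, 8.09 and 7.94 in NSP and 4.87 to 6.82 elsewhere, and was called higher in NSP in the same 3 comparisons. Its differences were 2.64 ± 0.39 against SC (limma adjusted p over all kept probes 0.000490), 1.87 ± 0.39 against RG (0.00680) and 3.25 ± 0.39 against LVW (8.97e-05). This probe was also called in LVW against RG, being at least 1.50-fold higher in RG (0.0192), where the brighter probe differed by 0.14 ± 0.63.

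Leaving out neurosphere replicate 3 kept the 3 Sox8 calls, with log2 differences of 2.79 from SC (limma adjusted p 0.000607), 2.03 from RG (0.00473) and 3.37 from LVW (0.000159). In that fit the second probe had the higher mean and stood for Sox8. Without correction of the background, the difference of NSP from RG was 3.86 with an adjusted p of 0.121.

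Sox10, the factor that drives oligodendrocyte differentiation and marks neural crest glia (gene at chr15:79154913-79164490), was detected most often in SC. Its probe (ILMN_1228105) read 4.55, 4.56 and 6.47 in LVW and 6.27, 7.59 and 8.91 in SC. It read 4.71, 4.60 and 4.62 in RG and 7.90, 5.03 and 6.16 in NSP. It was detected on 1 LVW, 3 SC, 0 RG and 2 NSP arrays, so all SC arrays lay above all RG arrays, while SC overlapped LVW and NSP. The SC arrays spread over 2.65 log2 units, and 94.2% of all tested genes had a smaller SD in SC.

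Sox10 was at least 3.99-fold higher in SC than in RG (log2 difference 2.95 ± 0.80, limma adjusted p 0.0152), a call that was lost without SC replicate 3 (2.31, adjusted p 0.0646). Its difference between SC and LVW was 2.40 (95% interval 0.64 to 4.16) with an adjusted p of 0.0992, and was called when LVW replicate 3 was left out (3.00, adjusted p 0.0420). The NSP arrays lay above the RG arrays (1.72 ± 0.80, limma adjusted p 0.160), which was not called.

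Oligodendrocyte lineage transcripts differed among the SC arrays that carried Sox10. Of 14 tested genes of that lineage, 6 were higher and 2 lower in SC than in RG, and 1 was higher in SC than in LVW, namely Fa2h, a myelin lipid enzyme. The 3 SC arrays detected 6, 12 and 11 of the 14, and the summed log2 signal of the list was 88.8, 128 and 127. In the other groups that sum was 98.9 to 104 in LVW, 89.7 to 93.9 in RG and 102 to 107 in NSP. Mbp, a main myelin protein, read 9.78, 13.56 and 13.55 in SC, and Mobp, another myelin protein, 8.07, 11.20 and 9.98. SC replicate 1 was thus the lowest of its group for Sox10 and for both myelin genes, and without it the difference of Sox10 from RG was 3.64 (limma adjusted p 0.00795). On a list of neural crest and Schwann cell genes, with Sox10 itself on it, 7 were tested. The 3 SC arrays detected 5, 3 and 3 of the 7, with summed log2 signals of 51.1, 46.8 and 48.4, so SC replicate 1 was highest there. Of these 7, 2 were called higher and 3 lower in SC than in RG. The parts of oligodendrocyte RNA and of neural crest RNA in the Sox10 signal were not tested.

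In neurospheres, where Sox8 was high, genes of that lineage were called in both directions against SC. Olig2, a specification factor, read 12.72, 13.03 and 12.52 in NSP and was detected on 1 SC array at 6.94. Olig1, its paralogue, read 14.33, 14.30 and 14.28 in NSP. Nkx2-2, a homeodomain factor of the lineage, read 8.68, 8.91 and 8.04 in NSP and was detected on 0 of the other 9 arrays. Mbp and Mobp were detected on 0 NSP arrays, and Mbp was at least 99.5-fold higher in SC than in NSP (limma adjusted p 4.23e-05). Of the 14 lineage genes, 3 were called higher and 4 lower in NSP than in SC. Sox10, which was not on that list, was not called in that comparison (-1.23 ± 0.80, limma adjusted p 0.280). Mag and Cldn11, further myelin genes, were plotted with the others after their values had been seen.

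**Figure D4:**
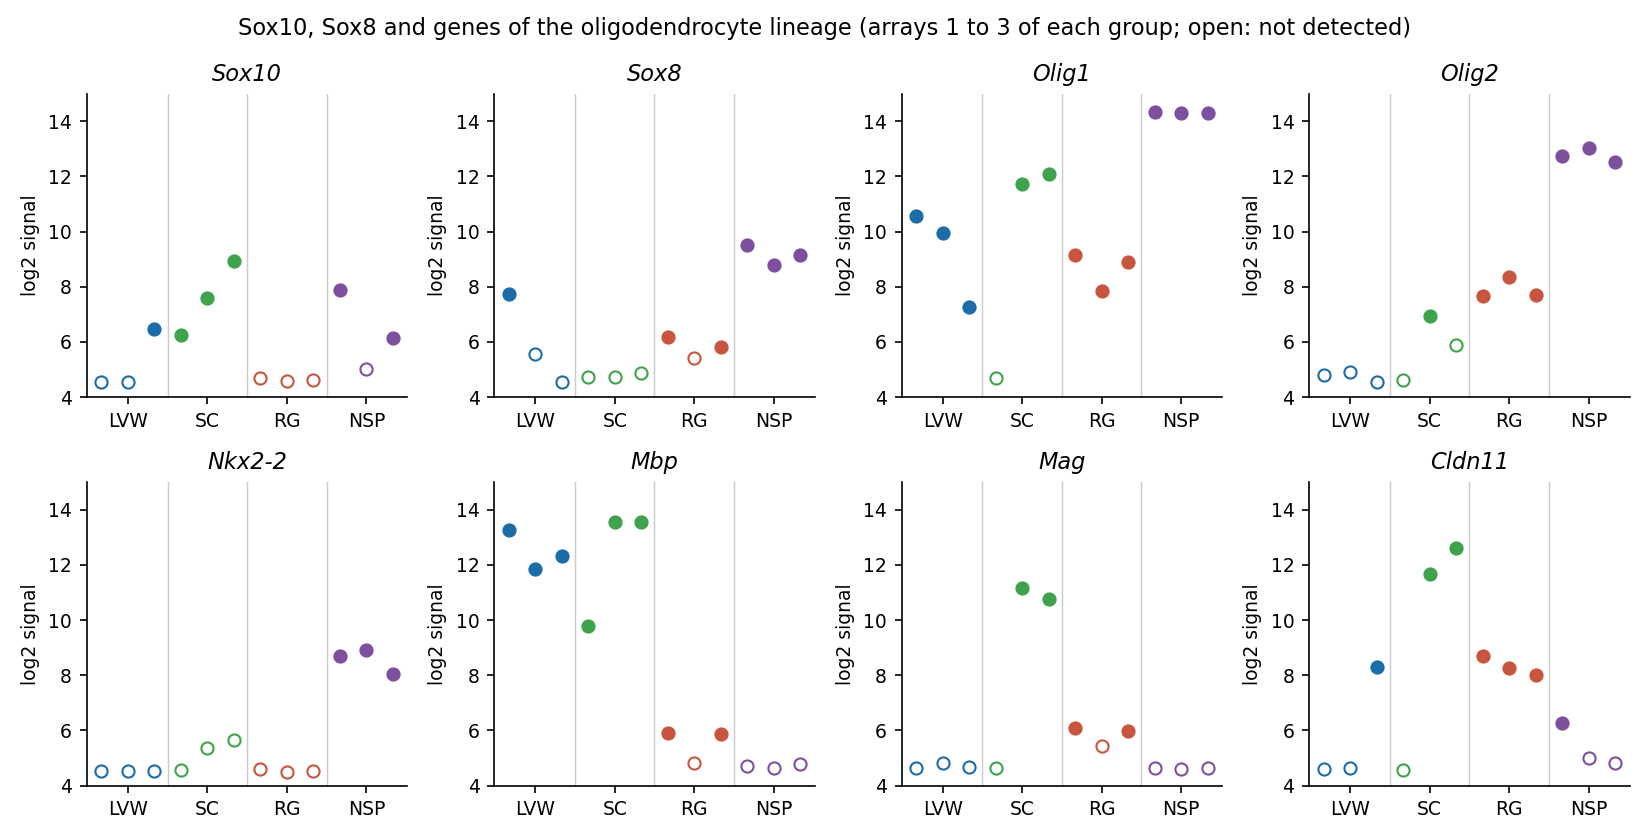
Log2 signal (vertical axis) of Sox10, Sox8 and 6 genes of the oligodendrocyte lineage on 3 arrays each of LVW, SC, RG and NSP, with open points for arrays on which the gene was not detected. Sox8, Olig1, Olig2 and Nkx2-2 are highest in NSP, where Mbp and Mag are open on all arrays. SC replicate 1 is lowest of its group for Sox10, Mbp, Mag and Cldn11.

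Genes known to act with Sox proteins on DNA, such as POU, PAX and nuclear factor I members, were measured from a list of which 15 were on the array and 10 were tested. In NSP against SC 4 were called higher and 1 lower, in NSP against RG 3 higher and 2 lower, and in NSP against LVW 4 higher and 1 lower. In LVW against RG 1 was higher and 4 lower, in SC against RG 3 were higher and 3 lower, and in SC against LVW 1 was higher and 1 lower. In the same order of comparisons, 30.2%, 20.3%, 33.7%, 36.5%, 31.8% and 8.04% of all tested genes were called. Pou3f1, a POU factor of progenitors and glia, read 8.79 to 9.50 in RG and 9.91 to 11.11 in NSP and was detected on 0 LVW and 0 SC arrays, the groups with low Sox11. It was at least 20.9-fold higher in NSP than in SC (limma adjusted p 2.97e-06). Pax6, a partner of Sox2, read 9.52, 5.64 and 6.96 in LVW and 11.13 to 11.83 in SC, and was called higher in SC (4.18 ± 0.74, limma adjusted p 0.00491), a comparison in which Sox2 differed by -1.06 ± 0.62 (adjusted p 0.359).

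The genes outside the family whose log2 signal ran closest to each member over the 12 arrays were listed by Pearson correlation, as a description. The arrays shared 4 groups and 1 normalisation, and the parts of these values between and within groups were not separated. For Sox11 they were Gng2 (0.980), Tox3 (0.975) and Naca (0.967). For Sox9 they were Smpdl3a (0.960), Mro (0.945) and Gja1. For Sox8 they were Pdzrn4 (0.977), Serinc1 (0.961) and Ttpa (0.955), and for Sox10 they were Gdnf (0.910), Tssk1 (0.906) and Il33 (0.895). Sox2 ran closest to Serinc5 (0.942), Arnt (0.922) and Kdm3b (0.909). For Sox6 they were Pold3 (0.919), Foxk1 (0.898) and Hmgn1 (0.890), and for Sox5 Afdn (0.863), Pdp2 (0.817) and Mtdh (0.817).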

How the data were processed

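Log2 signals of 12 arrays in 4 groups of 3 were compared. The deposited raw file gives, per the file headers, an array's intensity and a detection p-value for 46632 probes, and its negative values show that a background had been subtracted. A second deposited file holds log2 values, found to be quantile normalised and empty for 2 probes, which served as an alternative. Per the submitters' processing notes, the authors' tools included BeadStudio and lumi. Here, neqc of limma 3.58.1 (R 4.3.3) corrected the intensities with an offset of 16, its negative controls being recovered through the detection p-value, and normalised the arrays by quantiles.

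Probes with detection p under 0.01 on at least 3 arrays were kept (15760), and symbols came from the platform annotation (29976 probes with 1 symbol, 10 with several, 16646 with none). For each of 9526 genes the brightest kept probe, by mean over the arrays, was used. Linear models with 4 groups (limma lmFit and eBayes, two-sided) were fitted over the 12 arrays, and p-values were adjusted over all genes of a comparison, or over all kept probes where a probe is named. The fit was run on simulated data in which each gene had the same spread in every group. Such data cannot show how the fit does when the groups differ in spread. LVW and NSP arrays varied more than the others (median within-group SD 0.589 and 0.498, against 0.327 in SC and 0.317 in RG). The shared spread can therefore make standard errors of comparisons with LVW or NSP too small. The number of arrays limits the precision of every value.

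Named were all members with their probes, the other Sox genes and the 3 genes of highest correlation with each member. From each list set beside a member, up to 3 called genes of largest change per comparison were named. Markers in the check of the labels (Foxj1, Prom1, Cd24a, Pax6, Nes, Slc1a3 and Fabp7) were picked outside this rule. Cldn5, Ttr, Mag and Cldn11 are said to be chosen later. The members and lists were chosen with earlier results of these data known. No label says that a replicate number links samples, and deviations of same-numbered arrays from their group means correlated at -0.23 to 0.32, so they were not treated as pairs. Background correction, normalisation, filters, probe choice, weights, fit and each array left out were varied. Scaling to the median of all probes was added after seeing the data.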

Additional observations from a re-analysis of the deposited data

How the results depend on the processing

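Of the values that were called, 213 recomputations kept the call and 15 lost it, and none changed sign. Of those not called, 527 kept their direction without a call, 12 became called in the same direction and 31 changed sign. Among the 31, Sox8 in LVW minus RG was also called in 1 fit without 1 array (limma adjusted p 0.0341). The calls of Sox11 (LVW and SC against RG, NSP against SC and LVW), of Sox9 in LVW against RG and of Sox8 in NSP against SC and LVW held in all 13 alternatives and all 6 fits without 1 array. The count of members called went from 2 to 1 for NSP minus RG with median scaling over all probes (added after seeing the data). There the share of all tested genes called went from 20.3% to 13.8%. With array weights the member count went from 3 to 5 for SC minus RG, where the share of all genes went from 31.8% to 52.2%. With 1 array left out the member count ran from 0 to 2 for SC minus LVW (2 without LVW replicate 3, Sox2 and Sox10). It ran from 1 to 2 for NSP minus RG (1 without RG replicate 1, RG replicate 3 or NSP replicate 1). In these fits 5.04% to 10.6% of all genes were called for SC minus LVW (10.6% without LVW replicate 3), and 12.4% to 30.6% for NSP minus RG. The cause was not tested. Signs that turned belonged to differences that were not called in the main processing. Sox8 in LVW minus RG was -1.08 without background correction, -0.62 with the mean of kept probes and -0.47 with median scaling over all probes. Sox6 in NSP minus RG was 0.046 with median scaling and 0.12 with array weights. Median scaling over all probes gave -0.28 for Sox6 in SC minus LVW, -0.18 for Sox5 in LVW minus RG and 0.26 for Sox9 in NSP minus SC. The mean of kept probes gave -0.13 for Sox5 in LVW minus RG, 0.43 for Sox6 in SC minus RG, -0.62 for Sox6 in NSP minus SC and 0.000519 for Sox5 in NSP minus LVW. With 1 array left out, ranges that crossed 0 were -1.83 to 0.65 for Sox8 in SC minus LVW, -1.46 to 0.82 for Sox8 in LVW minus RG, -1.17 to 0.39 for Sox2 in NSP minus LVW, -0.14 to 0.70 for Sox5 in LVW minus RG, -0.085 to 0.94 for Sox10 in LVW minus RG, -0.45 to 1.06 for Sox5 in NSP minus SC, -0.16 to 0.028 for Sox6 in SC minus RG, -0.092 to 0.25 for Sox6 in NSP minus SC and -0.16 to 0.19 for Sox6 in NSP minus RG. For Sox8 the probe of highest mean changed in 5 of 12 such fits. With the replicate number as a block, the member counts were 0, 3, 3, 2, 2 and 2, as without it, and the block changed no call of a member. Over all genes, the count called moved by over 1.5 times for SC minus LVW (766; 292 with the 6 arrays compared, 484 with median scaling over all probes, and 475 to 995 with 1 array left out), for SC minus RG (3033; 4969 with array weights), for NSP minus RG (1933; 4123 with array weights, and 1147 to 2828 with 1 array left out) and for NSP minus LVW (3210; 2001 with the 6 arrays compared). Median scaling over all probes moved the median gene to between -0.80 and 0.49.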

Other observations

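Of 10 further Sox genes with a probe on the array, 3 could be tested, and 7 were detected on 0 arrays. Sox12, a SoxC gene like Sox11, read 7.57, 10.41 and 9.06 in LVW and 10.78, 11.26 and 11.02 in SC. It read 12.43, 11.93 and 12.16 in RG and 11.96, 12.05 and 11.91 in NSP. LVW lay below all other groups without overlap. Sox12 was 8.92-fold higher in RG than in LVW (log2 difference, LVW minus RG, -3.16 ± 0.55, limma adjusted p 0.000876), and was also called higher in SC than in LVW (2.01 ± 0.55, adjusted p 0.0473), a call that was lost when p-values were adjusted over all kept probes (0.0532). It was higher in NSP than in LVW as well (2.96 ± 0.55, limma adjusted p 0.00154). The other alternatives were not run for Sox12, Sox13 and Sox21.

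Sox13, a SoxD gene, was the one tested Sox gene called lower in neurospheres in all 3 of their comparisons. It read 6.41, 6.59 and 6.06 in NSP and 7.22 to 8.43 on the other 9 arrays, so NSP did not overlap them. Its differences were -1.33 from SC, -1.99 from RG and -1.56 from LVW (limma adjusted p 0.00831, 0.000975 and 0.00279). Sox21, a SoxB2 gene that counteracts SoxB1 proteins, was called lower in LVW than in RG (-1.65 ± 0.54, limma adjusted p 0.0324), although 1 LVW array at 11.82 lay within the RG range of 11.80 to 13.11. A dimmer Sox21 probe (ILMN_3163305), detected on 0 LVW and 2 RG arrays, was not called there (-0.93 ± 0.36, limma adjusted p over all kept probes 0.0692). The third Sox21 probe was detected on 2 arrays and was not tested.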
